A study of Mus musculus with 6 samples.

Results

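Integrins are adhesion receptors of the cell surface, each made of one alpha and one beta chain, that bind extracellular matrix or counter-receptors outside the cell and connect to the actin cytoskeleton through adaptor proteins inside it. The pairing sets the ligand: alpha chains that pair with the beta 1 chain recognise collagens, laminins or fibronectin, and the alpha v chain, joined to the beta 3, beta 5 or beta 8 chain among others, recognises matrix proteins with an RGD motif and the latent form of TGF-β. In tumor stroma, integrins are known as the receptors through which fibroblasts hold and pull on matrix and release TGF-β from it. RNA levels of 10 integrin subunit genes, 6 alpha chains (Itga1, Itga4, Itga5, Itga6, Itga11 and Itgav) and 4 beta chains (Itgb1, Itgb3, Itgb5 and Itgb8), are described here in cells sorted as stroma from mouse melanomas with or without depletion of ADAM12+ cells. Summed RNA of melanoma markers was 1.22 to 4.13 times that of fibroblast markers in these libraries. The 10 genes were taken by symbol from a table of 53801 genes, by a list drawn up with earlier results of these data known, and 9 of the 10 had enough counts to be tested, Itgb8 being the exception.

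RNA was sequenced from CD45-CD31-PDPN+PDGFRα+ cells sorted by FACS from MO5 tumors, a model in which B16-OVA melanoma cells are placed under the skin of adult C57Bl/6 mice. In DTR mice, a bacterial artificial chromosome carries the tTA-Ires-DTR cassette under the Adam12 promoter, so that diphtheria toxin (DT) kills the cells in which this transgene is active. Ctrl mice were littermates of genotype DTR-, without the transgene. Both groups received DT, so that all 6 libraries, 3 of Ctrl and 3 of DTR, come from toxin-treated mice, and the comparison asks how the sorted cells differ once ADAM12+ cells are depleted. The injected melanoma cells do not carry the transgene. The labels do not say whether each library came from a separate animal, so p-values measure the spread between these libraries, which may be technical in part.

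The libraries held between 22339635 and 34271929 counts on genes, and the detection floor of 3 counts lay at 0.0875 to 0.134 CPM (counts scaled to the library total), a limit that covers counting error only. All levels given below in CPM were scaled with TMM factors as well, which lay between 0.961 and 1.03. Adam12 itself was at 216, 181 and 175 CPM in Ctrl and at 165, 151 and 112 CPM in DTR, so that every DTR library was below every Ctrl library, at an adjusted p of 0.602 (edgeR). The sorting marker Pdgfra was at 125, 42.6 and 62.9 CPM in Ctrl and at 96.6, 54.0 and 132 CPM in DTR, and Pdpn ran from 46.0 to 99.0 CPM, with the groups overlapping for both. The label of these cells was checked against marker lists: 12 fibroblast genes summed to between 5337 and 14840 CPM, and 12 melanoma genes, led by the pigment enzyme gene Dct, to between 18040 and 22090 CPM, with Mc1r at 0. RNA of melanoma markers was thus abundant in every library of this gate. Leukocyte markers summed to 96.3 to 201 CPM, endothelial markers to 29.0 to 102.3 CPM, mural markers to 45.8 to 104 CPM and platelet markers to 3.60 to 6.69 CPM. The fibroblast sum was high in Ctrl 1, DTR 1 and DTR 3 and low in the other 3 libraries, a division that does not follow the groups. Col1a1, Col1a2 and Col3a1 made up most of this sum, at 1494, 931 and 2579 CPM of 5355 CPM in Ctrl 2. Each listed fibroblast marker followed this division except Pdgfrb, at 28.3 CPM in DTR 1 and 50.3 CPM in Ctrl 3.

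The sequence upstream of a gene is shown for 4 members, the most abundant and steadiest genes, Itgb1 and Itgav, and the most variable members tested, Itgb5 and Itga11. Each line gives the 250 bases before the transcription start, 5′ to 3′ on the gene's strand, from RefSeq on GRCm38.p6, with every GC box (GGGCGG on either strand), the motif bound by Sp1-type factors, in capitals. All 4 windows lie on the + strand, at chr8:128685404-128685653 for Itgb1, chr2:83724147-83724396 for Itgav, chr16:33829415-33829664 for Itgb5 and chr9:62677605-62677854 for Itga11. The start is that of RefSeq, and for Itga11 the last 29 bases of the window lie inside the locus that GENCODE gives, which begins further upstream.
Itgb1: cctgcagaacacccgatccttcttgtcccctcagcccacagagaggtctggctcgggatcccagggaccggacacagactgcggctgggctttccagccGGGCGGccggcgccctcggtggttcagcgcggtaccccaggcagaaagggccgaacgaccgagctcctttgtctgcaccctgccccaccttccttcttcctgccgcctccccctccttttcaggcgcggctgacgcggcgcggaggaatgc
Itgav: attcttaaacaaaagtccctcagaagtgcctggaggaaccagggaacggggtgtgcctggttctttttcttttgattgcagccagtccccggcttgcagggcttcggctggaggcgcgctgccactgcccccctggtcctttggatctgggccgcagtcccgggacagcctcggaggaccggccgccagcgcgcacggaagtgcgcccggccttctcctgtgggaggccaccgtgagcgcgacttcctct
Itgb5: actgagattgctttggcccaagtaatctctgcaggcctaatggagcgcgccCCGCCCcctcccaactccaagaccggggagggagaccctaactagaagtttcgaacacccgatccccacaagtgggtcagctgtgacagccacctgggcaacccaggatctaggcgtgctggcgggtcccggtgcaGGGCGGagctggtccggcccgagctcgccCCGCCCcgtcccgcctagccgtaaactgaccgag
Itga11: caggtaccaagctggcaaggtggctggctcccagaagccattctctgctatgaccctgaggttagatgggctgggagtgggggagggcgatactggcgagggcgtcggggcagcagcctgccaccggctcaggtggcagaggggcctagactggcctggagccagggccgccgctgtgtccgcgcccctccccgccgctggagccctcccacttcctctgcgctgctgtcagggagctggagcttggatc

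The window of Itgb5 held 3 GC boxes and that of Itgb1 held 1, while those of Itgav and Itga11 held 0. GC boxes are common, occurring in 33.0% of 32536 upstream windows of this length in the same table. The core letters of the hypoxia response element (ACGTG on either strand) were found in 0 of the 8 members that have a window in the table. They occur in 16.7% of all windows, and 8 windows are too few to tell a difference from that share. All 250 bases of the Itgb8 window lie inside its GENCODE locus. The first transcribed bases of Itga5 after its window were not found in a GENCODE transcript. These matches describe letters in the windows alone, and neither the abundance nor the variability of the 4 genes was tested against them.

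No difference between DTR and Ctrl was called for any of the 9 members tested. In the quasi-likelihood fit (edgeR, Benjamini-Hochberg adjustment over all genes), 0 members had an adjusted p under 0.05, as did 0 of the 15133 genes tested (0.0%), and the lowest adjusted p of a member was 0.678, that of Itga11. An unadjusted p under 0.05 was reached by 0 of the 9 members and by 7.92% of all genes tested. The groups overlapped for all 9, whereas they did not overlap for 14.5% of all genes tested (lower in DTR in 8.19%, higher in 6.3%). DESeq2's Wald test called 31 of the 20519 genes with an adjusted p (0.151%), 0 of them members, whose adjusted p lay between 0.935 and 1.0. Its unadjusted p was under 0.05 for 4.89% of all genes and for 0 members. Among the members, 3 log2 fold changes of DTR over Ctrl were below 0 and 6 above it, with a median of 0.05 beside -0.003 over all genes. The median size of a member's log2 fold change, regardless of sign, was 0.15, beside 0.18 over all genes. The 95% intervals of the members, not adjusted over genes, had a median half-width of 0.35 on the log2 scale. Changes smaller than this were thus not detectable for a typical member. Larger changes could still miss the adjusted threshold, which 0 genes passed with edgeR. An exact permutation test of 3 libraries against 3 cannot give a p below 0.1.

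**Figure D1:**
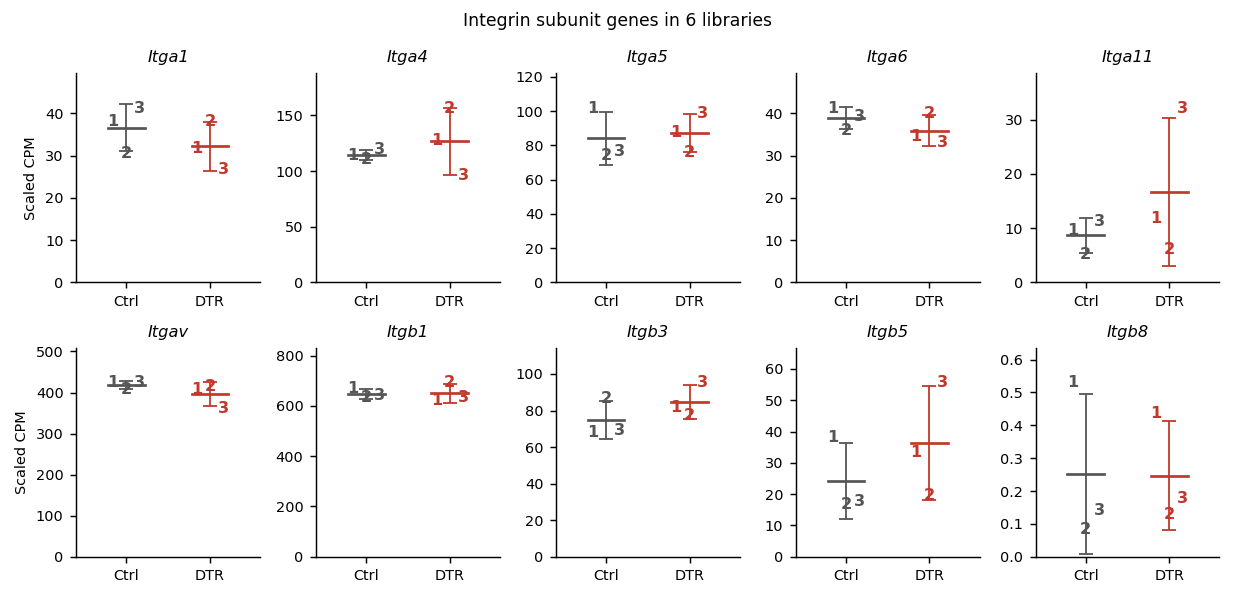
Level of each of the 10 integrin subunit genes in the 6 libraries, in CPM scaled with TMM factors on a linear axis from 0. Each digit is the replicate number of a library, the horizontal line is the mean and the bars are 1 SD (n = 3 per group), and the Ctrl and DTR libraries overlap in every panel.

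The common beta chain was the most abundant member and the steadiest. Itgb1 (chr8:128685654-128733200, + strand, GRCm38), which encodes the beta 1 chain shared by collagen, laminin and fibronectin receptors, was at 669, 632 and 640.0 CPM in Ctrl and at 623, 693 and 635 CPM in DTR. The group means were 647 ± 19.5 CPM in Ctrl and 651 ± 37.5 CPM in DTR (SD, n = 3), and the highest library was 1.11 times the lowest. Its log2 fold change was 0.01 ± 0.0841 (SE, 95% interval -0.19 to 0.20, adjusted p = 0.983 with edgeR), so that for Itgb1 the interval itself is narrow. The sign of so small a value changed with the library left out, from -0.04 to 0.05.

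Of the 5 members besides Itgav that encode alpha chains pairing with beta 1, Itga5 and Itga4 had the highest CPM. Itga5 (chr15:103344286-103366763, - strand), the alpha chain of the classical fibronectin receptor, was at 101.7, 74.1 and 76.5 CPM in Ctrl and at 87.3, 75.9 and 98.4 CPM in DTR. The highest libraries were Ctrl 1 and DTR 3, and the others lay lower whichever their group. The log2 fold change of Itga5 was 0.05 ± 0.15 (SE, adjusted p = 0.938 with edgeR), and leaving out each library gave -0.04 to 0.21. Itga4 (chr2:79255426-79333123, + strand), whose product binds VCAM1 and fibronectin and is best known on leukocytes, was at 114, 111 and 119 CPM in Ctrl and at 128, 157 and 96.5 CPM in DTR. The 3 Ctrl libraries lay close together, and DTR 2 and DTR 3 lay above and below all of them. Its log2 fold change was 0.15 ± 0.161 (SE, adjusted p = 0.82 with edgeR), and it was -0.03 without DTR 2 and 0.31 without DTR 3. Itga4 lies partly opposite Cerkl, which is on the other strand, and counting used strand.

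The laminin and collagen receptor chains were at lower levels. Itga6 (chr2:71745616-71858416, + strand), the alpha chain of laminin receptors, was at 41.2, 36.0 and 39.3 CPM in Ctrl and at 34.6, 40.1 and 33.0 CPM in DTR. DTR 1 and DTR 3 lay below all Ctrl libraries and DTR 2 lay among them. Its log2 fold change was -0.11 ± 0.114 (SE, adjusted p = 0.8 with edgeR), and -0.20 without DTR 2 and -0.06 without DTR 3. Itga1 (chr13:114953096-115101964, - strand), a collagen receptor chain with a preference for basement membrane collagen, was at 38.0, 30.5 and 41.2 CPM in Ctrl and at 31.8, 38.1 and 26.6 CPM in DTR. The groups were interleaved apart from DTR 3, the lowest library. The log2 fold change of Itga1 was -0.19 ± 0.165 (SE, adjusted p = 0.774 with edgeR), or -0.33 without DTR 2 and -0.07 without DTR 3, and 3.68% of its exon bases are shared with a gene on the same strand, Gm49395.

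Itga11 (chr9:62677826-62783982, + strand), the fibrillar collagen receptor chain known from fibroblasts, was the most variable member tested. It was at 9.51, 5.15 and 11.3 CPM in Ctrl and at 11.7, 6.14 and 32.1 CPM in DTR, from 233, 123 and 322 counts and from 404, 191 and 729 counts. DTR 3 stood apart, and DTR 1 and DTR 2 were on a level with the Ctrl libraries. The log2 fold change was 0.94, the highest of the members, with a standard error of 0.566 and a 95% interval from -0.37 to 2.24 (adjusted p = 0.678 with edgeR). Without DTR 3 it was 0.05, and with each of the other libraries left out it reached up to 1.33.

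The alpha v group, which takes RGD ligands, held the second most abundant member. Itgav (chr2:83724397-83806916, + strand), the alpha v chain, was at 425, 406 and 424 CPM in Ctrl and at 409, 415 and 362 CPM in DTR. DTR 3 was the lowest, and the other DTR libraries lay among those of Ctrl. The log2 fold change of Itgav was -0.08 ± 0.0867 (SE, 95% interval -0.28 to 0.12, adjusted p = 0.814 with edgeR), and -0.02 without DTR 3. Itgb3 (chr11:104608000-104670476, + strand), whose product joins alpha v in the vitronectin receptor, was at 68.2, 86.5 and 69.1 CPM in Ctrl and at 81.7, 77.3 and 95.4 CPM in DTR. All DTR libraries lay above Ctrl 1 and Ctrl 3, and Ctrl 2 lay among them. Its log2 fold change was 0.19 ± 0.128 (SE, 95% interval -0.11 to 0.48, adjusted p = 0.709 with edgeR), and 0.09 without DTR 3 and 0.30 without Ctrl 2.

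Itgb5 (chr16:33829665-33949338, + strand), which encodes another vitronectin-binding partner of alpha v, was at 38.2, 16.7 and 17.7 CPM in Ctrl and at 33.3, 19.7 and 55.7 CPM in DTR. Within each group the libraries differed by more than the group means, which were 24.2 ± 12.1 CPM in Ctrl and 36.2 ± 18.2 CPM in DTR (SD, n = 3). The log2 fold change was 0.58 ± 0.425 (SE, 95% interval -0.40 to 1.56, adjusted p = 0.73 with edgeR). It was 0.13 without DTR 3 and 1.07 without Ctrl 1. Itgb8 (chr12:119158022-119238802, - strand), whose product binds latent TGF-β with alpha v, had 13, 2 and 4 counts in Ctrl and 15, 4 and 4 counts in DTR. With at most 4 counts in 4 of the 6 libraries, Itgb8 was not tested, and no fold change is given for it.

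**Figure D2:**
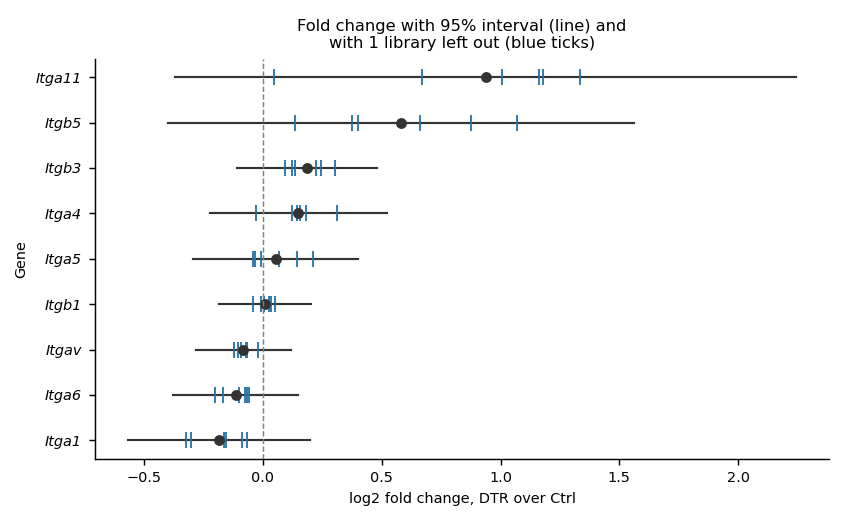
Log2 fold change of DTR over Ctrl for the 9 members tested, on a linear axis, with the edgeR estimate as a point and its 95% interval as a line, and the estimates with each library left out in turn as blue ticks. Every interval crosses 0, and those of Itga11 and Itgb5 are the widest.

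Levels of different genes were compared per kilobase of annotated exon, averaged over the 6 libraries. Itgb1 was at 159 CPM per kb, followed by Itgav at 37.9, Itga5 at 17.4 and Itgb3 at 13.5 CPM per kb. Itga4 and Itgb5 came next at 8.64 and 8.50 CPM per kb, and Itga6, Itga11 and Itga1 were at 4.14, 2.47 and 1.85 CPM per kb. Itgb8 was last, at 0.0225 CPM per kb. Neighbours in this order whose libraries overlapped were Itga5 with Itgb3, Itga4 with Itgb5, Itga6 with Itga11, and Itga11 with Itga1. Itga5 was nevertheless above Itgb3 in 6 of 6 libraries, while Itga4 was above Itgb5 in only 3 of 6 and Itga11 above Itga1 in only 2 of 6. The mean of Itga11 is raised by DTR 3, at 6.26 CPM per kb against 1.00 to 2.29 in the other libraries. Per kilobase of the longest protein-coding transcript, the order was unchanged except that Itga1, at 3.13, came before Itga11, at 2.55 CPM per kb. The most abundant subunits outside the 10 were Itga9, an alpha chain that binds tenascin-C and VCAM1, at 33.4 CPM per kb, and the leukocyte beta chain Itgb2 at 11.8 CPM per kb.

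**Figure D3:**
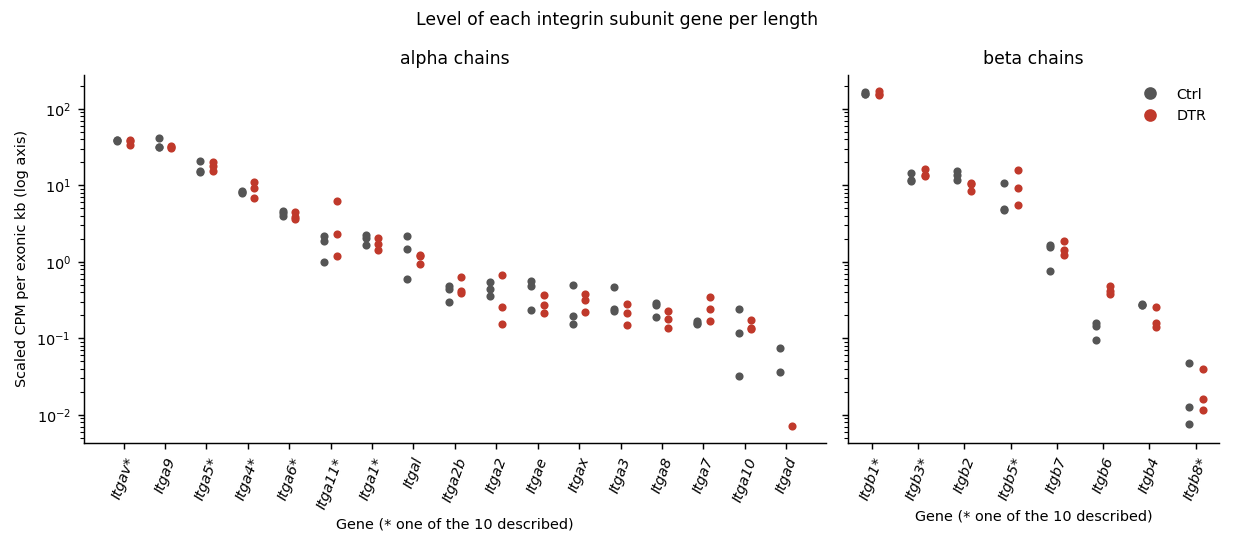
Scaled CPM per exonic kilobase of each integrin subunit gene in each library, on a log axis, with alpha chains on the left, beta chains on the right and an asterisk for each of the 10 genes described. Libraries at 0 cannot be drawn on this axis, which leaves out 3 libraries of Itgad and the genes Itgam and Itgb2l, and Itgb1 lies above every other gene.

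Since each alpha chain needs a beta chain, the make-up of each class was also described as a percentage of all integrin counts of that class, which does not depend on scaling between libraries. Itgav made up 42.0 ± 1.73% of alpha-chain counts in Ctrl and 41.2 ± 1.62% in DTR (SD, n = 3). Itga9, not among the 10, held 27.2% and 25.4%. Of the members, Itga4 followed at 11.5% and 13.2%, Itga5 at 8.45% and 9.15%, and Itga6 at 3.90% and 3.74%. The collagen receptor chains had the smallest shares among the 6 members, with Itga1 at 3.68% and 3.34% and Itga11 at 0.873% and 1.78%. These shares are not corrected for gene length, on which their order depends. Per exonic kilobase, Itga5 held 15.33% in Ctrl and 16.45% in DTR, above Itga4 at 7.38% and 8.44%. On that scale Itga11, at 1.53% and 3.03%, was above Itga1, at 1.77% and 1.61%, in DTR only. Among beta chains, Itgb1 made up 81.5 ± 1.24% in Ctrl and 80.3 ± 3.69% in DTR (SD, n = 3). Itgb3 stood at 9.40% and 10.5%, Itgb5 at 3.02% and 4.46%, and Itgb8 at 0.0312% and 0.0309%. Per library, the 6 alpha chains together held 65.3% to 73.5% of alpha-chain counts and the 4 beta chains 93.2% to 96.0% of beta-chain counts. For 0 of the 10 members did the groups' shares separate, beside 4 of the 17 other subunits (members: two-sided exact permutation tests, p from 0.4 to 1.0, and 0.667 to 1.0 with Benjamini-Hochberg adjustment over the 10). The count was 4 without Ctrl 2, when Itga1, Itga6 and Itgav were lower and Itgb3 higher in DTR, beside 6 of the 17 other subunits. With fewer libraries separation is more frequent, and without Ctrl 2 the levels of 23.1% of all genes tested separated the groups.

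**Figure D4:**
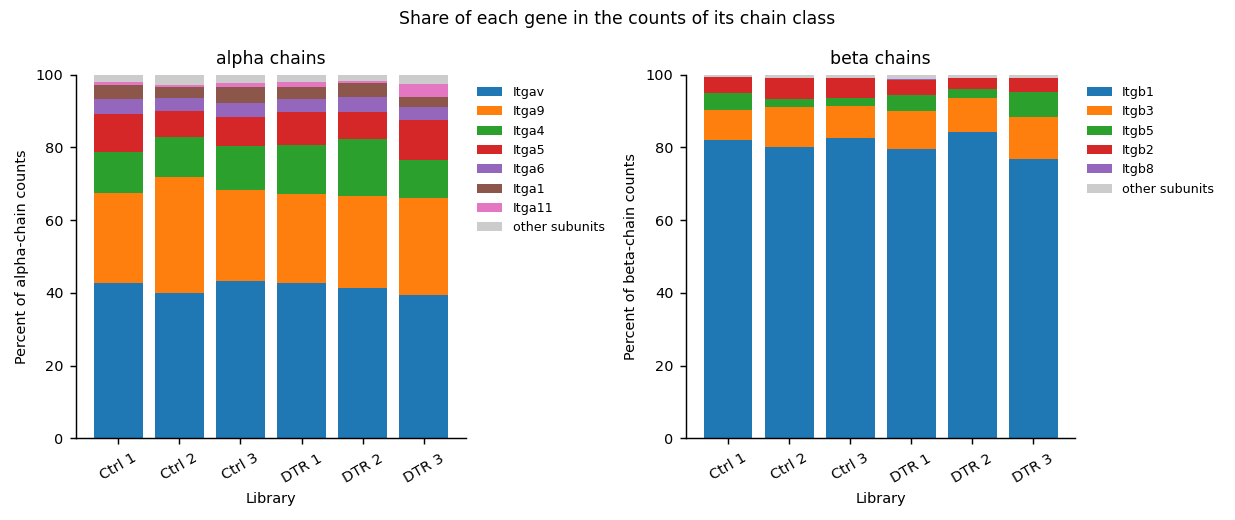
Percentage of alpha-chain counts (left) and beta-chain counts (right) held by each integrin subunit in each of the 6 libraries, stacked to 100. Itgav and Itga9 fill more of the alpha bars than any other chain, Itgb1 fills 76.9% to 84.2% of every beta bar, and Itgb8 is too small to be seen.

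Itgb5 and Itga5 were highest in the 3 libraries with the most RNA of fibroblast markers, which came from both groups. From the lowest to the highest fibroblast sum, the libraries came in the order Ctrl 3, Ctrl 2, DTR 2, DTR 1, Ctrl 1 and DTR 3, with sums of 5337, 5355, 5749, 11140, 13920 and 14840 CPM. In this order, Itgb5 was at 17.7, 16.7, 19.7, 33.3, 38.2 and 55.7 CPM, and Itga5 at 76.5, 74.1, 75.9, 87.3, 101.7 and 98.4 CPM. The 3 libraries with the high sums were thus the 3 highest for both genes, and 1 of them was from Ctrl. Itgb8 was also highest in these libraries, at 2 to 15 counts per library. How many of all genes have their 3 highest libraries here was not counted, so these members cannot be judged against that share. In the order of the fibroblast sum, Itgb1 was at 640.0, 632, 693, 623, 669 and 635 CPM, with no such rise. Itga11 was at 11.3, 5.15, 6.14, 11.7, 9.51 and 32.1 CPM in this order, so that Ctrl 3, with the lowest sum, lay above Ctrl 1. Relative to the fibroblast sum, Itgb5 varied 1.37-fold over the libraries, against 3.33-fold in CPM, and the other members varied 2.16-fold to 4.31-fold on that scale. Itga11 and Itgb8 also varied less on it, by 3.17-fold and 3.3-fold against 6.24-fold and 6.34-fold in CPM. Itga5 and the remaining members varied more, Itga5 by 2.16-fold against 1.37-fold in CPM. Itgb1 and Itgav, in contrast, varied 1.11-fold and 1.17-fold in CPM but 2.82-fold and 3.26-fold relative to the fibroblast sum, while the melanoma sum varied 1.22-fold and the fibroblast sum 2.78-fold. The melanoma sum, in the same order, was 4.05, 4.13, 3.68, 1.71, 1.38 and 1.22 times the fibroblast sum. In bulk RNA, fewer cells of a type and less RNA per cell cannot be told apart, and the part of these markers in the members' values was not tested.

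With the fibroblast sum as a covariate, a fit chosen after seeing the data, the log2 fold change of Itgb5 was 0.18 ± 0.143 (SE, adjusted p = 0.759 with edgeR) in place of 0.58. That of Itga11 was 0.31 ± 0.544 (SE, adjusted p = 0.902 with edgeR) in place of 0.94, and that of Itga5 was -0.06. This fit, like that without the covariate, called 0 members and 0 genes, with 1214 genes at an unadjusted p under 0.05.

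**Figure D5:**
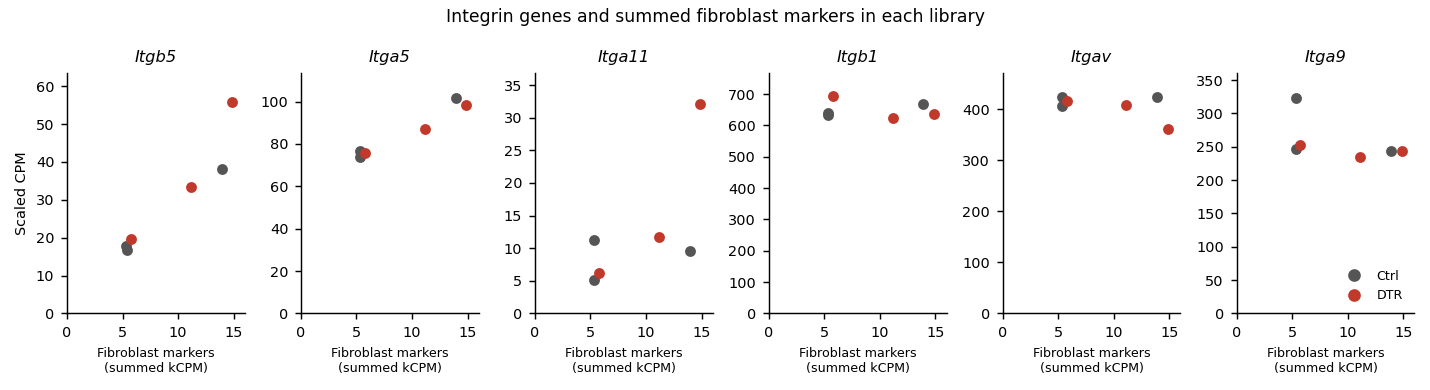
Scaled CPM of 5 members and of Itga9 in each library against the summed CPM of 12 fibroblast markers (axis in units of kCPM), both on linear axes from 0, with Ctrl libraries in gray and DTR libraries in red. Itgb5 and Itga5 lie higher in the 3 libraries with the high sums, and Itgb1, Itgav, Itga9 and Itga11 do not in all of them. Col1a1, Col1a2 and Col3a1 make up most of each sum.

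The other integrin subunits numbered 17, of which 14 were tested, and 0 had an adjusted p under 0.05 with edgeR or DESeq2. Their median log2 fold change was -0.24 (-0.28 to -0.07 with any 1 library left out), with 1 gene lower and 1 higher in DTR at an unadjusted p under 0.05 (4.11% and 3.81% of all genes). The higher one was Itgb6, a further alpha v partner known for epithelia and for activating latent TGF-β, at 1.02, 0.669 and 1.12 CPM in Ctrl and 3.399, 2.93 and 2.73 CPM in DTR. These levels rest on 16 to 32 counts in Ctrl and 62 to 117 counts in DTR, and every DTR library lay above every Ctrl library. The log2 fold change of Itgb6 was 1.68 ± 0.36 (SE, unadjusted p = 0.00164, adjusted p = 0.602 with edgeR and 0.073 with DESeq2), and leaving out each library gave 1.49 to 1.84. The lower one was Itgb2, the beta chain of leukocyte integrins, at 36.1, 46.6 and 41.7 CPM in Ctrl and 33.2, 25.6 and 31.9 CPM in DTR. Its log2 fold change was -0.45 ± 0.143 (SE, adjusted p = 0.602 with edgeR), with every DTR library below every Ctrl library. The leukocyte markers had a median log2 fold change of -0.25 over 13 tested genes, which was 0.19 without Ctrl 2, and their part in the value of Itgb2 was not tested.

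With Itgb6 and Itgb2, the groups did not overlap for 4 of the 14 subunits tested, beside 14.5% of all genes. The other two were Itgb4, the laminin receptor chain of hemidesmosomes, with a log2 fold change of -0.55, and Itga7, a laminin receptor chain of muscle, with 0.65, at adjusted p of 0.719 and 0.678 (edgeR). Without DTR 1 these values were -0.86 and 0.37. Itga9 was at 243, 323 and 246 CPM in Ctrl and 235, 252 and 244 CPM in DTR, with a log2 fold change of -0.15 (-0.008 without Ctrl 2) and overlapping groups. The remaining tested subunits, all overlapping, had log2 fold changes from -0.57 (Itgae) to 0.23 (Itga2b), with Itga3 at -0.56, Itga8 at -0.47, Itgal at -0.34, Itga2 at -0.33, Itgax at 0.12, Itga10 at 0.16 and Itgb7 at 0.20. Leaving out 1 library turned the sign for Itga2, Itga2b, Itga10, Itgal, Itgax and Itgb7, within the range from -1.11 (Itga2, without DTR 3) to 0.97 (Itga10, without Ctrl 3). Itga3 was at -0.15 without Ctrl 1, Itgae at -0.33 without Ctrl 2 and Itga8 at -0.29 without DTR 1. Itga10 shares 33.5% of its exon bases with a gene on the same strand. Itgad had 0 to 8 counts and Itgb2l had 0. The row of Itgam was listed at 0, but 68.7% of its exon bases are shared with a same-strand gene, so that its value cannot be interpreted.

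Inside the cell, integrins are switched on by talins and kindlins and joined to actin by adaptor proteins, and 31 of 32 genes of this kind were tested. With edgeR and with DESeq2, 0 had an adjusted p under 0.05. At an unadjusted p under 0.05 (edgeR), 1 was lower and 4 higher in DTR, beside 4.11% and 3.81% of all genes. DTR and Ctrl libraries separated for 10 of the 31 genes, 5 in each direction, beside 14.5% of all genes, and the median log2 fold change was -0.05 (-0.08 to 0.05 with any 1 library left out). The lower one was Tln1, which encodes talin 1, the main activator of integrins, at 640.4, 681 and 608 CPM in Ctrl and 545, 544 and 527 CPM in DTR (log2 fold change -0.25, standard error 0.0826, adjusted p = 0.602 with edgeR). The small GTPase genes Rap1a and Rap1b, which act upstream of talin, and Apbb1ip, which links the GTPase to talin, had log2 fold changes of 0.39, 0.25 and 0.76, with every DTR library above every Ctrl library (adjusted p of 0.602 to 0.603 with edgeR). Without DTR 3 those of Rap1b and Apbb1ip were 0.16 and 0.36. The fourth was Lims1, an adaptor bound by integrin-linked kinase, at 0.21. Parvb and Bcar1, adaptors of adhesion sites, had -0.24 each (-0.14 for Parvb without DTR 3), Src, a kinase of adhesion sites, -0.17, and Actn4, an actin crosslinker, -0.16, with every DTR library below every Ctrl library for all 4. Fermt3, the kindlin of blood cells, had the lowest value of the list, -0.54 (-0.32 without Ctrl 2), and Lims2 the highest, 0.93 (0.40 without DTR 3). The groups overlapped for the kinase gene Ptk2, at 0.01, for Ilk, at -0.14, and for the fibroblast kindlin Fermt2, at -0.05. With any 1 library left out, Ptk2 ran from -0.04 to 0.05, Ilk from -0.20 to -0.08 and Fermt2 from -0.14 to 0.04.

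Of 34 genes for integrin ligands, 33 were tested. At an adjusted p under 0.05 there were 0 calls with edgeR or DESeq2, and 3 were lower and 1 higher in DTR at an unadjusted p under 0.05, beside 4.11% and 3.81% of all genes. The median log2 fold change was 0.12 over the list (-0.07 without DTR 3 and 0.48 without Ctrl 1), 0.10 over 10 collagen chains, 0.36 over 6 laminin chains and 0.10 over the 17 other ligands. With any 1 library left out, these medians ran from -0.17 to 0.66, from -0.001 to 0.53 and from -0.06 to 0.27. Npnt, which encodes nephronectin, an RGD ligand, was at 106, 127 and 123 CPM in Ctrl and 79.0, 99.7 and 78.1 CPM in DTR. Its log2 fold change was -0.47 ± 0.123 (SE, adjusted p = 0.602 with edgeR), with every DTR library below every Ctrl library. Tgfb1, whose latent product is an alpha v ligand, also lay lower in every DTR library, with a log2 fold change of -0.30 ± 0.112 (SE, adjusted p = 0.602 with edgeR). The lowest and the highest values of the list were those of Tnc, the gene for tenascin-C, at -1.03, and Ltbp1, which ties latent TGF-β to matrix, at 1.25, with overlapping groups for both. Tnc was at 384 CPM in Ctrl 1 and at 68.6 to 183 CPM in the other libraries, and its value without Ctrl 1 was -0.32, while that of Ltbp1 without DTR 3 was 0.43. Ltbp1 was at 103 CPM in DTR 3 and at 16.8 to 39.4 CPM in the other libraries, so that the library that was highest for Itga11 and Itgb5 was also the highest for Ltbp1. Spp1, which encodes the RGD ligand osteopontin and was picked after its values were seen, had a log2 fold change of -0.85 with overlapping groups. The ligand for Itga4, Vcam1, had a log2 fold change of 0.10, and that of the fibronectin gene Fn1 was 0.83, with overlapping groups for both. Without DTR 3 they were -0.11 and 0.26, and without Ctrl 1 they were 0.27 and 1.35.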

How the data were processed

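The authors trimmed reads with cutadapt 3.4, aligned them to GRCm38 with STAR 2.7.3a and counted them per gene with featureCounts 2.0.1, using strand, and deposited raw counts, the values used here. Their methods name Ensembl release 92 and their data availability text release 102. The feature type is not given in the sources used here. Deposited normalized values and comparisons were not used.

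Genes were kept by edgeR's filterByExpr (minimum count 10, minimum total 15), so that 15133 were tested. TMM-scaled counts were compared by edgeR's two-sided quasi-likelihood test, without covariates, with Benjamini-Hochberg adjustment over all genes and a threshold of 0.05. Shares and single genes were compared by two-sided exact permutation tests. Exon lengths, overlaps and loci come from GENCODE M21 on GRCm38, and upstream sequences from RefSeq. The steps were tested on simulated data.

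The members and lists were chosen with earlier results of these data known. Named were all members, every other subunit, Adam12, Pdgfra and Pdpn, and from each adaptor, ligand and marker list the lowest and highest log2 fold change and up to 3 genes per direction with the lowest p among those whose groups do not overlap. Others (Lims1, Src, Actn4, Ptk2, Ilk, Fermt2, Spp1, Vcam1, Fn1, Col1a1, Col1a2, Col3a1, Dct, Mc1r, Gp9 and Treml1) were picked after their values were seen. Alternatives were DESeq2 size factors or library size alone, lower and higher filters, DESeq2's Wald test, a replicate block, an offset for genomic span, each library left out, shares per kilobase and, added after seeing the data, a fibroblast covariate. The versions were DESeq2 1.42.0, edgeR 4.0.16 and limma 3.58.1 in R 4.3.3, with figures from matplotlib 3.10.9 under Python 3.11.15.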

Additional observations from a re-analysis of the deposited data

How the results depend on the processing

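In all, 15 fits across all genes were made, and 0 members had an adjusted p under 0.05 in any of them. Over all genes, 0 passed that threshold in the edgeR fits of all 6 libraries, 31 with DESeq2's Wald test, and 0 to 2 with 1 library left out, the 2 without Ctrl replicate 1. The median log2 fold change over the members with a value in each fit (9 or 10) lay between -0.02 and 0.12, and over the same 9 members with 1 library left out between -0.03 and 0.12. The sign turned for Itga5 with the span offset (-0.007) and with the fibroblast covariate, which was chosen after seeing the data (-0.062), and for Itgb1 with the span offset (-0.081). With 1 library left out it also turned for Itga5 (-0.043 to 0.212), Itgb1 (-0.041 to 0.05) and Itga4 (-0.031 to 0.311). The count of members whose shares separated the groups ran from 0 to 4 with 1 library left out, being 1 without Ctrl replicate 1, 4 without Ctrl replicate 2, 2 without DTR replicate 2 and 1 without DTR replicate 3, beside 4 to 6 of the 17 other subunits, while the levels of 26.2%, 23.1%, 24.1% and 23.2% of all genes tested separated the groups in these settings. The difference in share, in percentage points, turned sign for Itgb8 (-0.0127 to 0.0165), Itga5 (-0.101 to 1.6), Itgav (-1.81 to 0.0438) and Itgb1 (-3.21 to 0.443). The cause of these changes was not tested. Members reached an unadjusted p under 0.05 only with fewer libraries (Itgb5, Itgb3, Itga11 and Itga4, 1 setting each), with the filter of at least 1 count (Itga11) and with the replicate block (Itga11, log2 fold change 0.70), at adjusted p of at least 0.582. Same-numbered libraries correlated at 0.101, 0.128 and -0.0262 in their deviations from the group means, so the numbers were not taken to pair them. The replicate block called 0 genes and 0 members, with 1271 genes at an unadjusted p under 0.05, and 2 of 3 Ctrl libraries correlated best with their own number. Itgb8 had 2 to 15 counts per library and entered 6 of the alternative fits, at adjusted p of at least 0.946.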

Other observations

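The marker lists used to describe the libraries moved as follows, with 0 genes of any list at an adjusted p under 0.05 (edgeR). Of the 12 fibroblast markers, 11 lay above 0 on the log2 scale, with a median of 0.43 and values from -0.19 (Pdgfrb) to 1.29 (Dpt), and the groups overlapped for all 12. Without DTR 3, 8 of the 12 lay above 0, with a median of 0.08 and Dpt at 0.44, and without Ctrl 1 the median was 0.99 and Pdgfrb was at 0.22. The melanoma markers ran from -0.28 (Sox10) to 0.05 (Mlana) over 11 genes, with a median of -0.11 (-0.03 without Ctrl 2 and -0.20 without DTR 2), and the groups did not overlap for Sox10 alone. Mlana was at -0.03 without Ctrl 1 and at 0.19 without Ctrl 3. The leukocyte markers ran from -1.23 (Cd3d) to 0.31 (Adgre1) over 13 genes, with 9 of them above 0 without Ctrl 2, and every DTR library was below every Ctrl library for Cd3d. The endothelial markers ran from -1.53 (Cdh5) to 1.84 (Tek) over 7 genes with a median of 0.51, and the groups did not overlap for Vwf, at 0.51, and Plvap, at -1.13. Without DTR 3 the endothelial median was -0.12 and Tek was at 0.42. In DTR 3, Tek, at 62.8 CPM, made up most of the endothelial sum of 102.3 CPM. Several of these counts were near the floor, with Cdh5 at 0 to 39 counts per library and Plvap at 4 to 42 counts. The listed endothelial markers that were not tested had 0 to 9 counts per library. The mural markers ran from -1.31 (Acta2) to 0.39 (Myh11) over 8 genes with a median of -0.72 (-0.30 without Ctrl 1), and every DTR library was below every Ctrl library for Cspg4, at -1.02. Only 2 of 8 platelet markers were tested, Pf4, at -1.14, and the integrin alpha chain Itga2b, at 0.23, while Gp9 and Treml1 had 0 counts in all libraries. When any 1 library was left out, the value of Cdh5 ran from -2.53 to -0.93, that of Plvap from -1.50 to -0.61, that of Acta2 from -1.91 to -0.81, that of Myh11 from -0.22 to 1.32, that of Adgre1 from 0.02 to 1.02 and that of Pf4 from -2.36 to -0.61.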
